A study of Mus musculus with 60 samples.

Results

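Acetylation of histone H3 at lysine 9 (H3K9ac) was compared between dorsal root ganglia taken after back surgery and after exposure of the sciatic nerve, the 2 operations of the study in which no axon was cut. All animals were C57BL/6 mice of 6-8 weeks, and the sciatic ganglia of levels L4-L6 were taken 24 hours after surgery. One group had a laminectomy (Lam), in which bone over the spinal cord is removed, and the other had the sciatic nerve exposed in a sham operation (Sham). Each group had 2 H3K9ac samples of 10 pooled mice, which are 4 of the 60 samples in the series, and each group is represented by 1 deposited list of peaks. A value of a group is therefore 1 value with no replicate error, and no test between the surgeries was possible. The intervals given below are 95% Wilson intervals and cover counting error only. The axotomies that go with these operations, of the dorsal columns (DCA) with laminectomy and of the sciatic nerve (SNA) with sham surgery, served for comparison, as did the H3K27ac and chromatin accessibility (ATAC) lists of Lam and Sham, which came from other mice.

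Lysine acetylation of histone H3 tails is written by acetyltransferases and removed by deacetylases, and H3K9ac is found mostly at the starts of active genes and at active enhancers. A ganglion holds the cell bodies of sensory neurons, each wrapped by satellite glia, with Schwann cells around the axons and with macrophages, vessels and connective tissue between them. The neurons send 1 branch to the periphery through the sciatic nerve and 1 into the spinal cord through the dorsal root. In whole ganglia a mark present in fewer cells cannot be told apart from a weaker mark in every cell. The order of depth after scaling also follows the site of surgery. From the deposited fold and p-values, the factor by which ChIP reads had been scaled down was lowest in the sciatic lists (Sham 0.315, SNA 0.40) and higher in the lists of back surgery (Lam 0.610, DCA 0.918). Depth and site of surgery cannot be told apart in these lists.

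Stretches of 250 bases that end just before the gene start are shown here for 8 genes whose peaks differed between the lists. They were chosen because base composition differed, over the whole lists, between promoter windows that met a peak in Lam only and in Sham only. They are from RefSeq on GRCm38.p6, are read 5′ to 3′ on the strand of the gene, and have each CG dinucleotide in capitals. In the first 5 genes the RefSeq promoter window met a peak in Lam and none in Sham. These are Fank1 (chr7:133776641-133776890, plus strand), Fbxl14 (chr6:119479418-119479667, plus strand), Chuk (chr19:44107478-44107727, minus strand), Ppp1r3f (chrX:7574282-7574531, minus strand) and Mag (chr7:30914864-30915113, minus strand). In the other 3 the window met one in Sham and none in Lam: Pdcl (chr2:37359333-37359582, minus strand), Grwd1 (chr7:45830790-45831039, minus strand) and Tlr2 (chr3:83841609-83841858, minus strand). The window also takes in 50 bases after the start that are not printed. The Pdcl peak (chr2:37358973-37359293) met only those bases. The peaks at Chuk and Ppp1r3f, which end at chr19:44107491 and chrX:7574292, reached only the edge of the printed stretch. The stretches are thus promoter sequence and not the sequence under the peaks. A window without a peak is not a gene without one: Sham peaks lay 0.346 kb from the Lam peak at Fbxl14 and 0.348 kb from that at Chuk. Fank1, Chuk, Pdcl and Grwd1 were among the strongest peaks of 1 list, Fbxl14 had the highest GC content among the named peaks that were shared with DCA and not SNA, Ppp1r3f stands for the X chromosome, and Mag and Tlr2 for the glial and inflammatory genes.
Fank1: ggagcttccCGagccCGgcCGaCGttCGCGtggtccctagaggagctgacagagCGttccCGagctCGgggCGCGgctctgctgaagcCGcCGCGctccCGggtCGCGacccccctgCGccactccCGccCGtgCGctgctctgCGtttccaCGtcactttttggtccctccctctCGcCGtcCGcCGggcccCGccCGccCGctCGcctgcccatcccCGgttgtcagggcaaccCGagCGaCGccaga
Fbxl14: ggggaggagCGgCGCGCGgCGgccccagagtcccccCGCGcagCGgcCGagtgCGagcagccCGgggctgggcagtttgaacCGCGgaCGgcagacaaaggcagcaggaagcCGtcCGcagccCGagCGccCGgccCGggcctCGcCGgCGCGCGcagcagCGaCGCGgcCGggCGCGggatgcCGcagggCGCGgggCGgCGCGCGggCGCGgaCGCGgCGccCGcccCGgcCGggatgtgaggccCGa
Chuk: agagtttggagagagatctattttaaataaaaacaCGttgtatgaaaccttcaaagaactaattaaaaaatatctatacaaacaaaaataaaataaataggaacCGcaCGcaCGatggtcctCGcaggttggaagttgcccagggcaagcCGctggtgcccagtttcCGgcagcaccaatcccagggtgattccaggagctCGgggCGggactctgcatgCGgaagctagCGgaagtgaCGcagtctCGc
Ppp1r3f: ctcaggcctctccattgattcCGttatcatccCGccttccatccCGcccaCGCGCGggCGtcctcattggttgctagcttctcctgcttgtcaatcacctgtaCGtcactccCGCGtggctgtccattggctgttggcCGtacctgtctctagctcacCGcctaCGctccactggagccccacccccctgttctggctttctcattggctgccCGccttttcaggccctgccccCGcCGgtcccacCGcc
Mag: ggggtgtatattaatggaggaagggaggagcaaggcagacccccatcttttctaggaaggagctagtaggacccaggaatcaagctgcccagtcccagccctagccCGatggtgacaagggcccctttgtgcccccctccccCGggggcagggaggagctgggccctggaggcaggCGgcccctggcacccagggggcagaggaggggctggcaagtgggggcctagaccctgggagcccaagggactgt
Pdcl: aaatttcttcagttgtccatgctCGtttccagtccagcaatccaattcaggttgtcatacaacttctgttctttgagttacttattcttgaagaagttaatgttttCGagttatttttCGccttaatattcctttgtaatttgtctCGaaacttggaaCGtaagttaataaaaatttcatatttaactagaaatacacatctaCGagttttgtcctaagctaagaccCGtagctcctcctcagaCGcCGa
Grwd1: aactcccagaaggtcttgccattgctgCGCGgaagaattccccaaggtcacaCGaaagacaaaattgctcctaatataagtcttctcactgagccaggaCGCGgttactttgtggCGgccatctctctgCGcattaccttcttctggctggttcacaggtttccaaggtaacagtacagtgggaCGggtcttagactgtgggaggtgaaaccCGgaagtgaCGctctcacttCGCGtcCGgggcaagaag
Tlr2: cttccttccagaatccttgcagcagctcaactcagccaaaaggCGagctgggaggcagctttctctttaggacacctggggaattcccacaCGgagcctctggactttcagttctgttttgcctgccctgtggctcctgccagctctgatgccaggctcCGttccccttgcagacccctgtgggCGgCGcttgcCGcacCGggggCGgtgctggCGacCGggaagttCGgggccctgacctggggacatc

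Over the window of 300 bases that RefSeq promoters have here (250 before the start to 50 after it), GC content was 82.7% at Fbxl14, 74.3% at Fank1, 66.7% at Ppp1r3f, 65% at Mag and 51.7% at Chuk. It was 62% at Tlr2, 55% at Grwd1 and 40% at Pdcl. Of the windows met in Lam only, that of Fbxl14 held 56 CG dinucleotides, Fank1 41, Ppp1r3f 29, Chuk 21 and Mag 6. Of those met in Sham only, Grwd1 held 21, Pdcl 16 and Tlr2 11. The 2 sets thus overlap in GC content and in CG number.

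The Sham list held 50332 peaks over 27.8 Mb and the Lam list 50667 peaks over 24.7 Mb. Sham peaks were wider, with a median width of 440 bp against 388 bp. Of the Lam peaks, 20650 (40.8%, 40.3 to 41.2) met no Sham peak with 1 bp or more, and of the Sham peaks 21751 (43.2%, 42.8 to 43.6) met no Lam peak. Many of these lay beside a peak of the other list: 38.1% of the unmatched Lam peaks and 35.9% of the unmatched Sham peaks had one within 1 kb. Another 35.5% and 41.2% had one between 1 and 10 kb away. The nearest was more than 10 kb away for 26.4% of the unmatched Lam peaks (5454) and 22.9% of the unmatched Sham peaks (4978).

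The strongest peaks were mostly shared. Among the 5000 peaks with the highest −log10 p of each list, which rates a peak against its own local background and not against the other surgery, 346 Lam peaks (6.92%, 6.25 to 7.66) and 149 Sham peaks (2.98%, 2.54 to 3.49) had no match. In the next 5000 of the Lam list the unmatched share was 17.0%, and in the fifth group of 5000 it was 43.9%. Unmatched peaks were also narrower, with median widths of 298 bp in Lam and 346 bp in Sham, against 497 and 557 bp for shared peaks. The lists differed mostly in narrow and weak peaks, and the strong exceptions are named below.

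**Figure D1:**
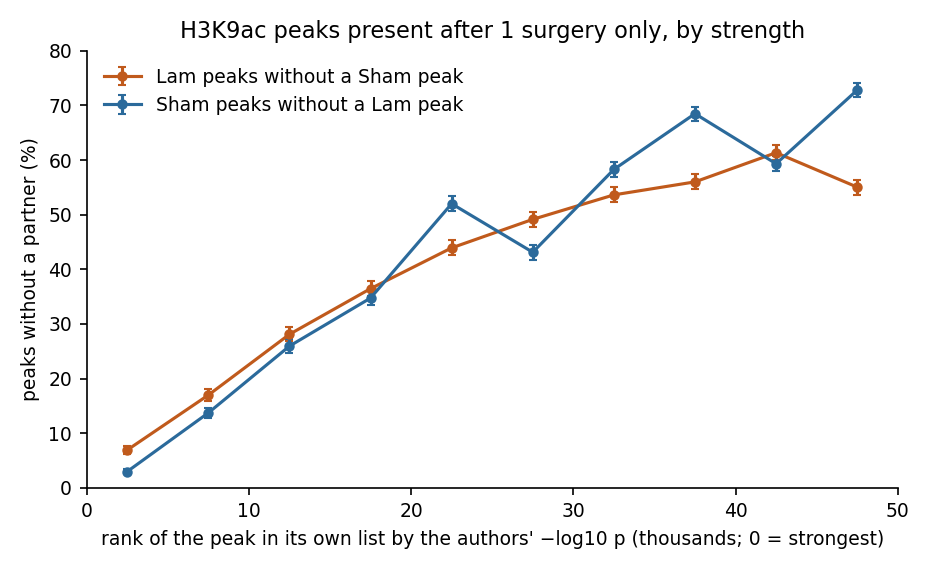
Share of H3K9ac peaks of each list without an overlapping peak in the other (y axis, percent), in groups of 5000 peaks by rank of −log10 p within the list (x axis, strongest at the left), for Lam (orange) and Sham (blue). Whiskers are 95% Wilson intervals for counting error alone; the Lam share rises from 6.92% in the strongest group to 43.9% in the fifth, and the Sham share starts at 2.98% and is uneven among weak peaks, many of which have equal p.

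In the lists as deposited, peaks at genes' ends lacked a match less often than peaks inside genes or between them. A peak was counted at a gene end when at most 1 kb separated it from the start or the far end of any protein-coding gene. Of the Lam peaks at gene ends 23.1% (3418 of 14784) had no Sham match, against 47.9% of those in genes and 48.4% of those between genes. For Sham these shares were 21.1% (2932 of 13885), 52.1% and 50.3%. Shared peaks were at a gene end in 37.9% (Lam) and 38.3% (Sham) of cases, peaks seen in Lam only in 16.6%, and peaks seen in Sham only in 13.5%. At a −log10 q of at least 5 most unmatched peaks were at gene ends, 59.9% in Lam and 74.1% in Sham.

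In the lists as deposited the 2 surgeries were close at the level of genes. Of 21887 protein-coding genes, 9708 (44.4%) had an end peak in both lists, 1172 (5.35%) in Lam only, 1029 (4.7%) in Sham only and 9978 (45.6%) in neither. Stricter limits removed more Sham than Lam peaks, and the genes in Lam only and in Sham only were then 1995 and 855 at a q of at most 0.05, and 3428 and 524 at a −log10 q of at least 5. Most of the genes marked in 1 list only were marked after an axotomy as well. Of the 1172 genes marked in Lam and not in Sham, 92.7% had an end peak in DCA and 56.1% in SNA, and 55 had none in any of the other 3 H3K9ac lists. Over all genes, 59.3% had an end peak in DCA and 50.6% in SNA. Of the 1029 genes marked in Sham and not in Lam, 85.6% had one in DCA and 66.5% in SNA, and 87 had none elsewhere.

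The strongest end peak of the Lam list without a Sham match lay at Chuk, which encodes the IKK alpha kinase of NF-kappaB signalling. It spanned chr19:44106780-44107491, had a fold enrichment of 6.39 over its local background and a −log10 p of 21.6, and stood on 66 reads at the summit against 8.94 expected. No Sham peak lay within it, the nearest being 0.348 kb away, and H3K27ac was also listed there in Lam and not in Sham. It was followed by peaks at Pmel, a melanosome protein, and Rab5b, an early endosome GTPase (fold 5.80, −log10 p 17.5), at Fank1 (59 reads over 10.5, −log10 p 15.9), at Phf21a, a histone reader of a demethylase complex (54 reads over 8.31), and at Efl1, a GTPase of ribosome maturation (45 reads over 5.75). Fank1 and Efl1 stood in wide gaps of the Sham list, 9.64 and 83.6 kb from its nearest peak. The peaks at Phf21a, Prdm11, Smad1, Vps8 and Nhlrc3/Proser1 were all within 1 kb of a Sham peak, at 0.907, 0.167, 0.136, 0.223 and 0.225 kb. Smad1 is a mediator of BMP signals, and the Sham list too had a peak at an end of this gene. The tenth, at Zfp2, was 14.2 kb from the nearest Sham peak.

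All but 3 of these 10 peaks were also in the SNA list. Phf21a, Smad1 and Vps8 were in DCA and not in SNA, as were Ivns1abp (fold 5.50, 46 reads over 7.03) and Fbxl14, a ubiquitin ligase subunit (fold 4.20, 63 reads over 13.7). The peaks at Ivns1abp and Fbxl14 lay 0.586 and 0.346 kb from a Sham peak. The peaks at Chuk, Nhlrc3/Proser1, Zfp2, Stau1, an RNA-binding protein of dendritic transport, and Micu3, a regulator of mitochondrial calcium uptake, were those that were strongest among the ones whose H3K27ac peak was also in Lam and not in Sham. Those at Stau1 and Micu3 lay 0.17 and 0.067 kb from a Sham H3K9ac peak. Away from gene ends, the strongest peak lay in Zmym4 (chr4:126967104-126968373). This peak met a RefSeq promoter window of Zmym4, so it was away from the outer ends of the gene and not from every annotated start. It had 72 reads over 8.95, a fold of 6.96 and a −log10 p of 24.3, the nearest Sham peak was 36.7 kb away, and the DCA list held it while the SNA list did not. The same held in DCA and SNA for the next 3, in Luzp1 and near Spen, a corepressor of Notch targets, and Ttc17, while the peak in Maml2, a Notch coactivator, was in both axotomy lists. The peaks of Spen, Ttc17 and Maml2 lay 0.453, 0.276 and 0.276 kb from a Sham peak, and that in Luzp1 7.01 kb.

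The strongest end peaks of the Sham list without a Lam match were weaker within their list. The peak at Stil, which acts in centriole assembly (chr4:114999448-114999853), had 52 reads over 5.32, a fold of 6.50 and a −log10 p of 11.4. The nearest Lam peak was 11.7 kb away. Among the 10 strongest were also BC005624/Usp20, Ckb (the brain creatine kinase), Pdcl, Grin2d/Grwd1, Tmem161b, Jmjd7/Mapkbp1, Irak1bp1 and Mrpl41, with folds of 5.66 to 6.14. Those at Pdcl, Tmem161b and Irak1bp1 were 62.5, 124 and 141 kb from any Lam peak, whereas that at Ckb was 0.046 kb from one. Of the 10, Pdcl alone was missing from the SNA list, and all 10 were in DCA. H3K27ac was listed in Lam at all 10 of them, and in Sham at all but BC005624/Usp20 and Jmjd7/Mapkbp1.

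H3K27ac went with the Sham list at Acd/Pard6a, Hras/Lrrc56, Abcf3, Phkg1/Sumf2 and Zfp646/Zfp668, the strongest end peaks present in Sham and not in Lam for both marks. Their H3K9ac folds were 4.54 to 5.32 on 40 to 42 reads. A Lam H3K9ac peak lay 0.206 kb from that at Acd/Pard6a, 0.768 kb from Hras/Lrrc56, 0.205 kb from Abcf3 and 0.777 kb from Zfp646/Zfp668. For Phkg1/Sumf2 the distance was 17.1 kb. Hras encodes a small GTPase of growth factor signalling and Pard6a a polarity protein. Away from gene ends the strongest Sham peaks without a match lay in Zfp661, in Nfatc1, a calcium-regulated transcription factor, in Sgk1, a glucocorticoid-induced kinase, and near Mex3a and Opa1, the latter a mitochondrial fusion GTPase. Their folds were 5.62 to 5.97. The peak in Zfp661 met a RefSeq promoter window of that gene. Those in Nfatc1 and Sgk1 lay 0.204 and 0.647 kb from a Lam peak. For Zfp661, Mex3a and Opa1 the distances were 1.83, 5.69 and 2.24 kb. The strongest end peaks shared by Sham and SNA and missing from Lam and DCA were at Ntan1, Krt8, Cwc25/Pip4k2b, Hjurp and Sec11c, with −log10 p of 5.86 to 6.78, below the 13.8 to 15.8 of the Lam peaks shared with DCA only. Since −log10 p grows with scaled depth, these are not comparable sizes. The peaks at Ntan1, Cwc25/Pip4k2b and Sec11c lay 0.357, 0.234 and 0.144 kb from a Lam peak. Those at Krt8 and Hjurp lay 18.5 and 13.8 kb from one.

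**Figure D2:**
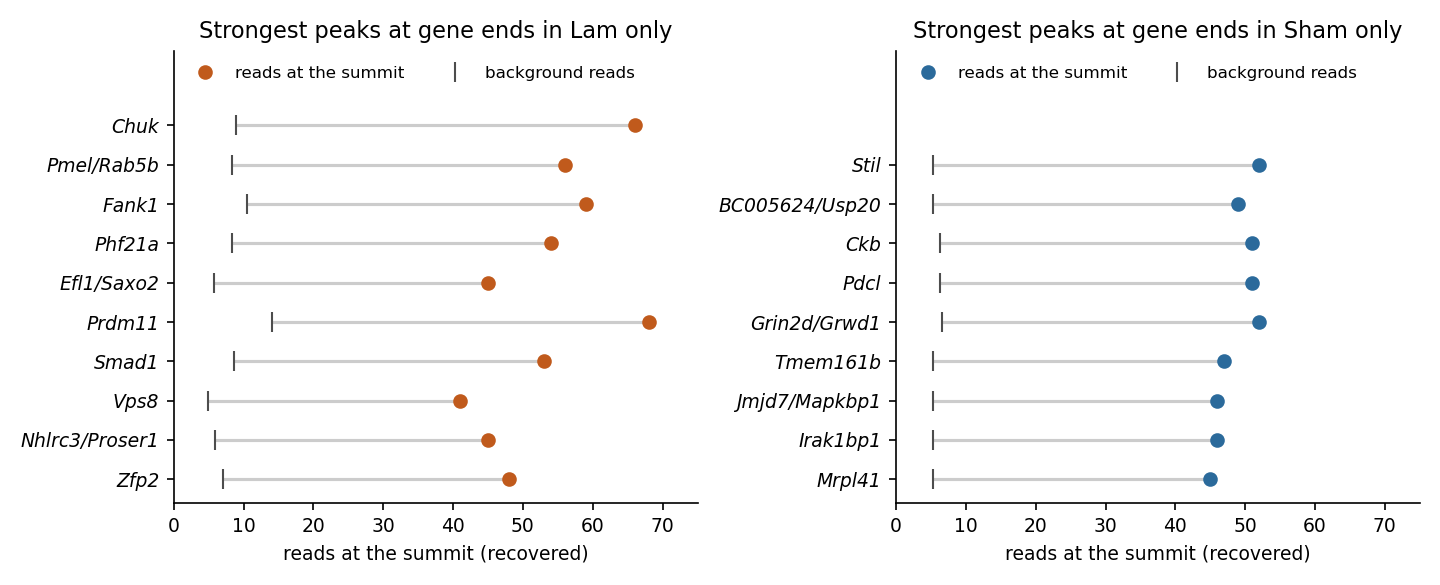
Recovered reads at the summit and reads expected from the local background (x axis, reads before scaling) for the strongest H3K9ac peaks at gene ends without a match in the other list (y axis, gene), of which 10 Lam and 9 Sham peaks are drawn. The Lam peaks stand on 41 to 68 reads over 4.97 to 14.1 and the Sham peaks on 45 to 52 reads over 5.32 to 6.55.

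Of the unmatched end peaks, 276 of 3418 in Lam and 360 of 2932 in Sham met no peak in SNA or DCA. The 5 strongest of each were added after the values had been seen. In Lam the strongest were at Usp9x, an X-linked deubiquitinase (32 reads over 4.97), Prrc2c, Tmem74b, Tmem232 and Eln, the elastin gene, with −log10 p of 7.41 to 9.99. In Sham they were at Lrat, which esterifies retinol (35 reads over 5.32), Sp4, Thegl, Meak7 and Cacfd1/Slc2a6, with −log10 p of 5.80 to 6.66. All were of moderate strength, and those at Prrc2c, Meak7 and Cacfd1/Slc2a6 lay within 1 kb of a peak of the other list, at 0.248, 0.280 and 0.822 kb.

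Promoter base composition differed between windows that met a peak in Lam only and in Sham only. These are classes of windows and not of unmatched peaks, since a window counts as met by any peak of a list. The peak that meets a window in Lam only can overlap a Sham peak outside the window. The unmatched Lam peak at Nhlrc3/Proser1 met a Proser1 window that is classed as in both. RefSeq promoter windows were available for 17492 of the protein-coding genes (79.9%), in 21230 windows. Of the 2546 windows above 70% GC, 611 (24.0%, 22.4 to 25.7) met a peak in Lam only and 144 (5.66%, 4.82 to 6.62) in Sham only. In the lists as deposited the order turned in the middle range: between 50 and 65% GC, 748 of 9774 windows (7.65%) met a peak in Lam only and 1128 (11.5%) in Sham only. That turn was lost under stricter limits, with 936 and 976 windows at a q of at most 0.05 and, in the opposite direction, 1279 and 389 at a −log10 q of at least 5. In the deposited lists it lay between the classes of 60 to 65% GC, with 312 in Lam only and 417 in Sham only, and 65 to 70% GC, with 385 and 273. Windows under 40% GC were rarely marked, with 21 in Lam only and 5 in Sham only. The median GC content was 65.3% for the 1946 windows in Lam only, 60% for the 1695 in Sham only, 60.3% for the 5339 in both and 51.3% for the 12250 in neither.

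All 4 H3K9ac lists differed at the GC-rich windows. Above 70% GC a peak met 18.9% of the windows in SNA, 28.2% in Sham, 46.5% in Lam and 87.5% in DCA, so both lists of back surgery stood above both lists of sciatic surgery. Between 50 and 65% GC these shares were 48.0, 46.2, 42.3 and 62.8%. Lam was the lowest there in the lists as deposited, but it was level with Sham at a q of at most 0.05 (40.1 and 40.5%) and above it at a −log10 q of at least 5 (19.4 and 10.3%). Of the 611 GC-rich windows in Lam only, 610 (99.8%) were also marked in DCA and 98 (16.0%) in SNA. The 144 in Sham only gave nearly the same picture, with 97.2% in DCA and 23.6% in SNA. Nearly all windows above 70% GC met an ATAC peak, 95.9% in Sham and 95.9% in Lam, so presence of an ATAC peak could not show a difference of this size. H3K27ac peaks met 21.6% of these windows in Sham and 47.6% in Lam, in lists of 43803 and 67311 peaks.

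The recovered background also moved with GC content. At windows above 70% GC the median background was 9.52 reads in Sham and 13.1 in Lam, against 6.08 and 9.83 at 55 to 60% GC, and the median reads at the summit were 45 and 44. The part of depth, background and library composition in the GC difference was not tested beyond 1 calculation: with the 2 lists thinned to the same background level the counts above 70% GC were 592 in Lam only and 150 in Sham only. Among peaks of −log10 q of at least 5, a much stricter limit for the Sham list, they were 391 and 25.

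**Figure D3:**
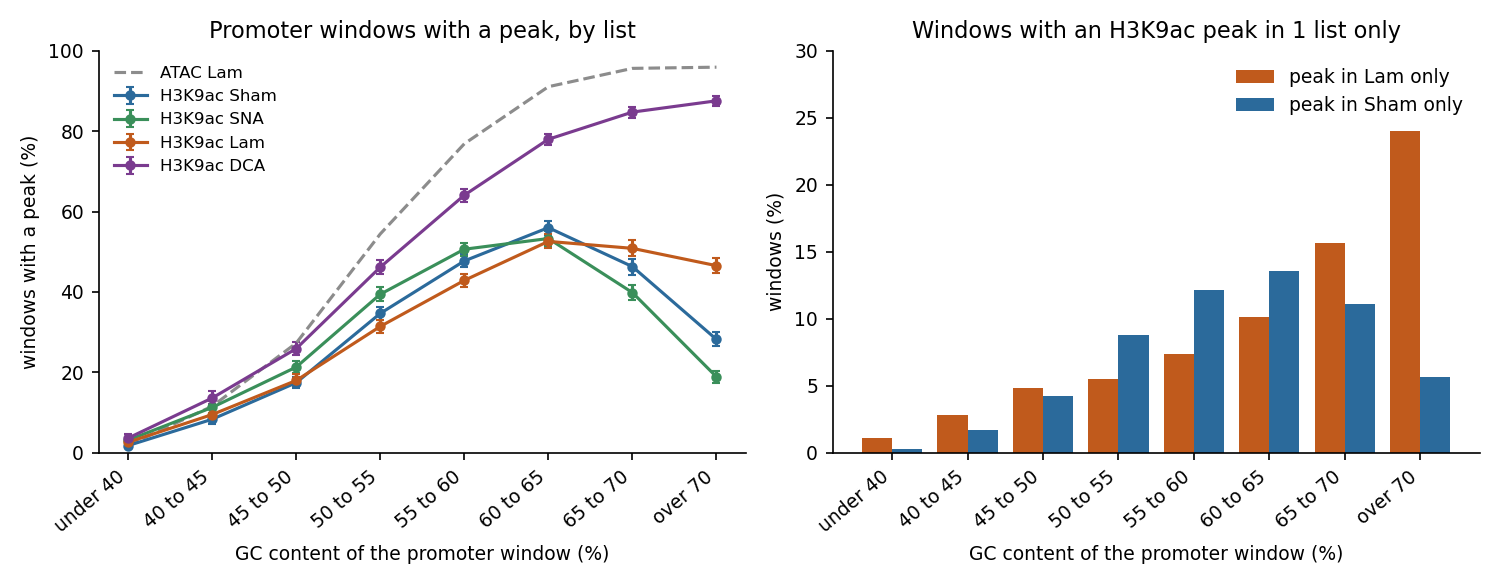
Left, promoter windows that meet a peak (y axis, percent of windows) by GC content (x axis, percent) in the 4 H3K9ac lists, with 95% Wilson intervals as whiskers (counting error only), and in the ATAC list of Lam (dashed). Right, windows that meet an H3K9ac peak in Lam only and in Sham only (y axis, percent of windows); Lam only reaches 24.0% above 70% GC, where Sham only is at 5.66%, and Sham only is the higher from 50 to 65% in the lists as deposited, though not at a −log10 q of at least 5.

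Short sequence motifs were counted in the same windows. The GC box GGGCGG was in 73.6% of the windows in Lam only, 64.7% of those in Sham only, 60.9% of those in both and 46.2% of all windows, on either strand. The CCAAT box was in 32.1, 43.0, 34.5 and 38.2% of the same sets. The E-box CACGTG was in 9.51% of the windows in Lam only, 11.5% in Sham only and 7.84% of all, and the AP-1 site TGACTCA in 2.93, 4.31 and 4.66%. The ETS site CCGGAAG marked the windows in both lists most, at 23.3% against 15.0% in Lam only, 16.5% in Sham only and 11.6% of all. TATAAA was in 5.14% of the windows in Lam only and 6.90% in Sham only, against 12.6% of all, and the cAMP response element TGACGTCA in 2.26, 2.83 and 2.24%. A match describes the letters of a window and not the binding of a factor.

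The X chromosome stood apart from the autosomes. The Lam list held 476 peaks on X and the Sham list 276, although the lists were of nearly equal size, and 58.8% of the X peaks of Lam had no match against 30.1% of those of Sham. Of 966 X-linked protein-coding genes, 99 (10.2%, 8.49 to 12.3) had an end peak in Lam only, 32 (3.31%, 2.36 to 4.64) in Sham only and 154 (15.9%) in both. On the autosomes these shares were 5.18% (1071 of 20665), 4.82% (997) and 46.2%. The Sham list was the lowest of the 4 on X: an end peak was found at 19.3% of its X genes, against 26.2% for Lam, 28.3% for SNA and 35.7% for DCA. Of the 99 X genes in Lam only, 70.7% were also marked in SNA and 93.9% in DCA, against 54.6% and 92.7% for the autosomal genes in Lam only. The SNA and DCA lists are longer, with 74652 and 89647 peaks against 50332 in Sham. Their shares on X were not compared at equal list sizes.

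H3K27ac had the same direction on X and ATAC did not. End peaks of H3K27ac were found at 10.6% of X genes in Sham and 19.6% in Lam, beside 42.2 and 53.0% of autosomal genes. ATAC end peaks were found at 31.1 and 28.7% of X genes and at 72.1 and 72.3% of autosomal genes. In the middle GC class too, X windows were more often in Lam only than in Sham only. Between 50 and 65% GC, 36 of 451 X windows (7.98%) were in Lam only and 20 (4.43%) in Sham only. On the autosomes 712 of 9320 (7.64%) were in Lam only and 1108 (11.9%) in Sham only. The shares in Lam only were thus close, and X windows were less often in Sham only or in both lists (7.76% against 36.0% on the autosomes). Above 70% GC, the autosomes alone gave 602 in Lam only and 140 in Sham only of 2495 windows, and the GC difference was as large without X. On X these counts were 9 and 4 of 51 windows.

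The strongest X peaks at gene ends in Lam only were at Pgrmc1, a heme-binding membrane protein (chrX:36598254-36599000; 35 reads over 5.11, fold 5.43, −log10 p 11.5), and Slc6a8, the creatine transporter (34 reads over 4.97). Acot9, Usp9x, Ppp1r3f, F8/Fundc2, Rlim, a ubiquitin ligase of X inactivation, and Bcor, a Polycomb-associated corepressor, followed with 30 to 36 reads. In Sham only, the strongest were at Tsr2, with 33 reads over 5.32 and a −log10 p of 5.80, and at Fam199x, Mid2, Ddx3x, Acsl4, Smarca1, Ccdc22 and Diaph2, with 28 to 32 reads. All 8 of these Sham peaks were in both axotomy lists. Of the Lam peaks, Slc6a8 was missing from SNA and Usp9x from SNA and DCA. X peaks rested on few reads in Lam, with a median of 23 against 28 on the autosomes.

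The sex of the mice is not in the labels used here. Xist, the RNA of the inactive X chromosome, had no peak in any of the 4 H3K9ac lists or in the H3K27ac and ATAC lists of these surgeries. The Y chromosome held 4 Lam and 3 Sham peaks. The Y-linked genes Uty and Ddx3y were marked in all 4 H3K9ac lists, Kdm5d in all but Sham, and Eif2s3y in SNA and Lam. The part of the pools' makeup in the X difference was not tested.

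**Figure D4:**
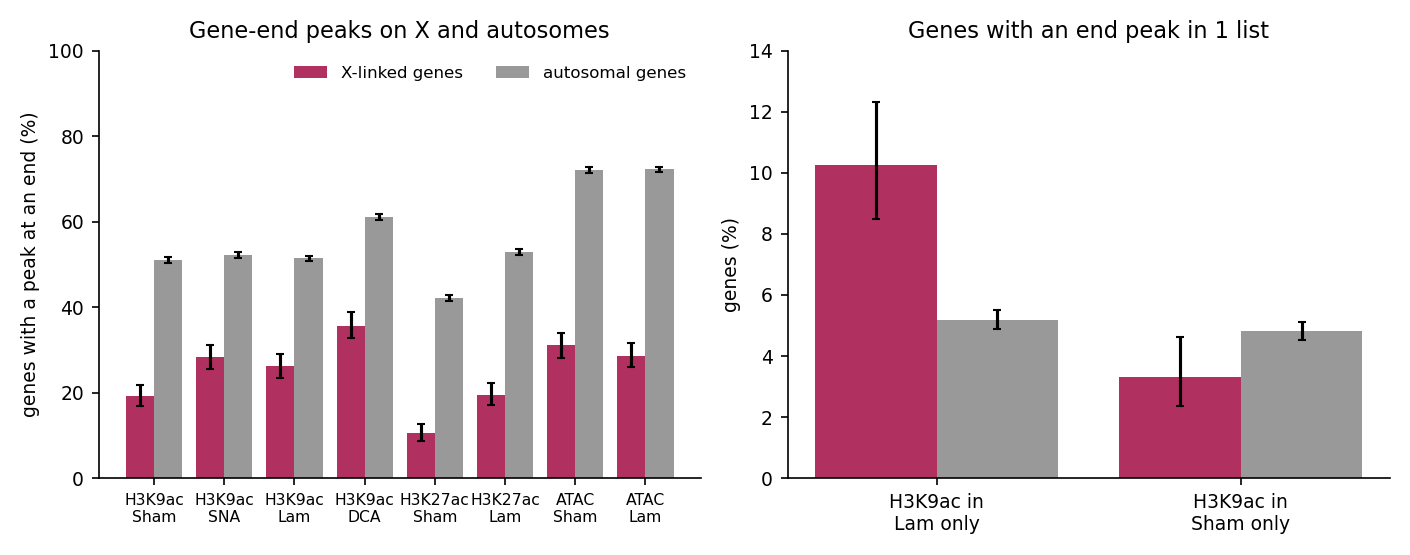
Left, X-linked and autosomal protein-coding genes with an end peak (y axis, percent of genes) in each list (x axis), and right, those with an H3K9ac end peak in Lam only and in Sham only. Whiskers are 95% Wilson intervals for counting error alone; the H3K9ac share of X genes is lowest in Sham at 19.3%, and 10.2% of X genes but 5.18% of autosomal genes are in Lam only.

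Gene groups were then described by how many members had an end peak in each list, to be read against 5.35% of all genes in Lam only and 4.7% in Sham only. Markers of the ganglion's cell types came first. Glial genes were well covered: of 20 satellite glia and Schwann cell genes, 13 were marked in both lists, 4 in Lam only and none in Sham only. The excess in Lam was not stable: with starts from the promoter table the counts were 1 and 1, with a window of 5 kb 1 and 0, and at a −log10 q of at least 5 they were 1 and 2. Folds of the 2 lists are given side by side and rest on different scaled depths. Those in both included Sox10, the master regulator of the glial lineage (fold 3.92 in Sham and 3.03 in Lam), the myelin genes Mbp (4.50 and 2.08) and Pmp22 (5.67 and 4.75), and the neuregulin receptor Erbb3 (4.12 and 3.52). The 4 in Lam only were Mag, a myelin adhesion protein (fold 3.97, 34 reads over 7.35, 1.009 kb from a Sham peak), Kcnj10, the potassium channel of satellite glia (2.87), Cdh19 (2.76) and Apoe (2.67). The Apoe peak itself overlapped a Sham peak that ended outside the gene's window. Ncmap and Egr2 had no end peak in either list, and all 4 of the Lam genes had one in SNA and in DCA.

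Neuronal identity genes were almost without H3K9ac end peaks. Of 26 sensory neuron genes, P2rx3, an ATP-gated channel of nociceptors (fold 6.64 in Sham and 5.32 in Lam), and Piezo2, the touch channel (5.32 and 2.66), were marked in both lists, and the other 24, Isl1, Pou4f1 and Prph among them, in neither. DCA held end peaks at 7 of the 26 and SNA at 3. A marker without a peak is one whose mark was not detected at this depth, not one without the mark.

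Markers of other cell types gave small counts. Of 20 macrophage genes, Spi1 and Cd14 were marked in both lists, Fcer1g, the common Fc receptor chain, in Lam only (fold 2.40, −log10 p 3.16) and Cd68 in Sham only (fold 4.54), although that Sham peak overlapped a Lam peak. The other 16, Csf1r, Aif1 and the C1q genes among them, were marked in neither. Of 12 lymphocyte and neutrophil genes Cd4 (fold 3.37, 48 reads over 13.1) and Cd79a (3.32, 43 reads over 11.8) were in Lam only and the other 10 in neither. With starts from the promoter table, and with a window of 250 bp, 0 of the 12 were in Lam only. Of 13 vessel genes 7 were in both and Tie1 in Lam only. Of 10 fibroblast and meningeal genes, the collagens Col1a1, Col1a2 and Col3a1 were in both, Dcn and Lum in Lam only with folds of 2.52 and 1.97, and Foxc1 in Sham only with 3.91. Of 13 genes of spinal cord glia and motor neurons, Cnp was in both, and Gfap (fold 3.32, 0.171 kb from a Lam peak) and Aldh1l1 (3.14) in Sham only, while the defining genes Olig1, Olig2, Mog, Aqp4, Chat and Mnx1 were in neither. Of 10 skeletal muscle genes Mylpf was in both and Ckm in Lam only (fold 2.19), with Acta1, Myh1 and Myh4 in neither. The part of adjoining tissue in the differences was not tested.

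**Figure D5:**
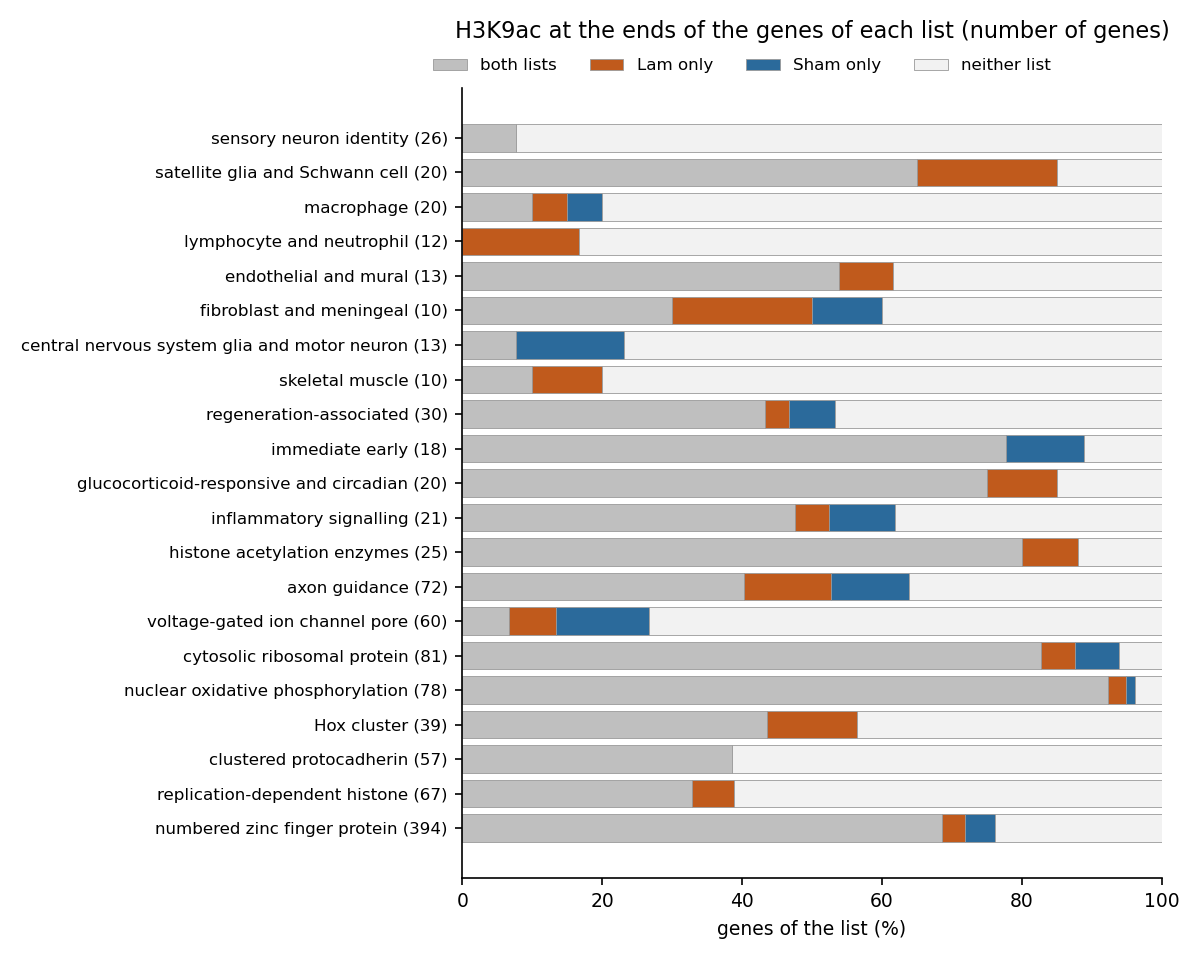
Members of each gene list with an H3K9ac end peak in both lists, in Lam only, in Sham only and in neither (x axis, percent of the list's members), by list (y axis); the olfactory receptor list, with 1105 of 1106 members in neither, is left out. In the lists as deposited, glial, Hox and histone acetylation genes have members in Lam only and none in Sham only, and voltage-gated channels have 4 in Lam only and 8 in Sham only.

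Genes that respond to injury and stress were mostly marked alike. Of 18 immediate early genes, which neurons and glia switch on within minutes of a stimulus, 14 were in both lists, Fos (fold 6.97 in Sham and 5.01 in Lam) and Junb (6.01 and 5.32) among them. Arc, whose product regulates synaptic receptors, and the nuclear receptor gene Nr4a1 were in Sham only. The Arc peak (chr15:74671836-74672588) had 46 reads over 6.08, a fold of 5.31 and a −log10 p of 8.65, and the nearest Lam peak was 36.0 kb away. Within the gene and 10 kb on each side, Arc had 4 Sham peaks and 0 Lam peaks. Both axotomy lists and both H3K27ac lists held a peak at an end of the gene. Nr4a1 was weaker, with a fold of 2.54 and a Lam peak 6.204 kb away.

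Of 30 genes linked to axon regeneration, 13 were in both lists, including the transcription factor genes Atf3 (fold 4.85 in Sham and 4.54 in Lam), Jun (5.59 and 3.03), Klf6 (7.32 and 7.17) and Klf7 (3.63 and 8.47). Basp1, a growth cone protein, was in Lam only (fold 3.19). Lif, a cytokine released after nerve injury, and Gal, the neuropeptide galanin, were in Sham only (folds of 3.91 and 3.67), and Gal was in no other H3K9ac list. The Lif peak, at the far end of the gene, lay 3.69 kb from a Lam peak, and that at Gal 34.7 kb. Gap43, Sox11, Sprr1a and Npy had an end peak in neither. Of 21 genes of inflammatory signalling, 10 were in both, Cxcl10 in Lam only with a weak peak (fold 1.97, −log10 p 2.05), and Lif and Tlr2 in Sham only. Tlr2 is a receptor for bacterial lipoproteins, and its peak (chr3:83841064-83841905) had 35 reads over 5.32, a fold of 4.50 and a distance of 139 kb to the nearest Lam peak. The SNA and DCA lists and both H3K27ac lists held a peak at an end of Tlr2.

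Of 20 glucocorticoid-responsive and circadian genes, 15 were in both, including Fkbp5, Per1 and Sgk1, and none in Sham only. Cry1, a repressor of the circadian clock, was in Lam only with 42 reads over 14.7 (fold 2.66) and 56.3 kb from a Sham peak. Tsc22d3, the X-linked glucocorticoid-induced leucine zipper, was in Lam only with 22 reads over 6.55 (fold 2.89), and within 10 kb of the gene the Lam list held 10 peaks and the Sham list 1. Both were in DCA and not in SNA.

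Enzymes that write and erase histone acetylation were marked in both lists in 20 of 25 cases, Ep300, Crebbp, Kat2a and Hdac1 among them. Hdac6, a cytoplasmic tubulin deacetylase (fold 3.49), and Hdac8 (3.12) were in Lam only, and both are X-linked. Of 72 axon guidance genes, ligands and receptors that steer growing axons, 9 were in Lam only, 8 in Sham only and 29 in both. In Lam only were Sema3f (45 reads over 13.1), the plexin receptors Plxna3 and Plxnb3 (30 reads over 6.55 each, both X-linked), Ephb4 (42 reads over 13.1), Efnb2, Slit3, Sema4d, Sema4f and Sema6b. In Sham only were Ephb2 (36 reads over 6.34, 59.0 kb from a Lam peak), Sema4c, Sema7a, Efna5, Epha4, Efnb1, Ntn1 and Ntng2. The peak at Efna5 lay 0.341 kb from a Lam peak. Those at Sema4c and Sema7a, at the far ends of the genes, lay 1.73 and 3.22 kb from one. Of the Lam peaks, that at Plxna3 lay 1.10 kb from a Sham peak.

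Voltage-gated channels, by which neurons fire, were rarely marked, with 44 of 60 in neither list. In Lam only were 4, Cacna1e, Kcnc2 and Kcnf1 among them with folds of 2.43 to 2.93. In Sham only were 8, among them Kcnd3, Kcna2, Kcna10, Kcng4, Kcnh8, Kcnv2 and Kcnd1. Of these, Kcnh8 (fold 5.20) and Kcna2 (4.02) had Sham peaks that overlapped a Lam peak outside the gene's window. DCA held all 8 of the Sham genes and SNA 3 of them.

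Hox genes, which set position along the body axis, had 17 of 39 members in both lists, 5 in Lam only and none in Sham only. The 5 were Hoxa4 (39 reads over 7.03, fold 4.69, 6.97 kb from a Sham peak), Hoxc5 (3.26), Hoxb9 (2.95), Hoxa5 (2.60) and Hoxd3, and DCA held all 5 and SNA 4. Neighbours in a Hox cluster share peaks, so these are not independent counts. Cytosolic ribosomal protein genes were marked in both lists in 67 of 81 cases and genes of oxidative phosphorylation in 72 of 78. The 5 ribosomal genes in Sham only included Rps10 (45 reads over 6.08, fold 5.21), Rpl18, Rpl14 and Rpl38. Rpl22, Rps9, Rpl39 and Rpl36a were in Lam only, the last pair X-linked. The peaks at Rpl22 and Rps9 lay 0.215 and 1.02 kb from a Sham peak, and those at Rpl39 and Rpl36a 41.9 and 25.6 kb. Atp5d was in Sham only, and Atp5g1 and the X-linked Ndufb11 in Lam only. The clustered protocadherins, with 22 of 57 in both, and the 394 zinc finger genes, with 270 in both, 13 in Lam only and 17 in Sham only, were mostly alike in the lists as deposited. At a q of at most 0.05 there were 20 protocadherins in Sham only and 0 in Lam only, and 32 zinc finger genes in Lam only and 16 in Sham only. At a −log10 q of at least 5 the zinc finger genes were 105 and 14. Of 67 replication-dependent histone genes, 22 were in both, 4 in Lam only and none in Sham only. In all, 12 of the 22 lists had more members in Lam only than in Sham only.

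Peaks that were in Lam and not in Sham went more often with DCA than with SNA. Of the 20650 unmatched Lam peaks, 26.5% met a DCA peak and no SNA peak, 11.3% an SNA peak and no DCA peak, and 25.3% neither. For the 21751 unmatched Sham peaks the shares were 17.4% with DCA only, 14.6% with SNA only and 21.0% with neither. The DCA list is the longer, with 89647 peaks against 74652, and among shared Lam peaks too more met DCA only (7.84%) than SNA only (4.29%). When the 4 lists were merged into 112171 regions, 3588 regions were in Lam and DCA alone and 2399 in Sham and SNA alone. The crossed pairs were of the same order, with 1807 in Lam and SNA and 2675 in Sham and DCA. The Lam and DCA regions lay at gene ends in 22.4% of cases and the Sham and SNA regions in 10.1%.

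In the other assays the unmatched peaks of both surgeries gave similar shares. Of the unmatched Lam peaks, 28.2% met an H3K27ac peak of Lam and none of Sham, and 5.12% the reverse. For the unmatched Sham peaks these shares were 27.9 and 5.83%, and over all Lam H3K9ac peaks they were 29.2 and 4.80%, in H3K27ac lists that were longer for Lam. For ATAC they were 9.30% (Lam without Sham) and 8.53% (Sham without Lam) at the unmatched Lam peaks and 13.4 and 11.4% at the unmatched Sham peaks. At gene ends, 339 genes had H3K9ac and H3K27ac in Lam and neither mark in Sham, and 67 had both in Sham and neither in Lam. H3K27ac in Lam without Sham was, however, found at 266 of the 1029 genes with H3K9ac in Sham only as well, and the reverse at 51 of the 1172 in Lam only.

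Large genes carried the largest differences in peak number. Within the gene and 10 kb on each side, Stard13 held 51 Sham and 78 Lam peaks, Zbtb20 57 and 83, Aopep 97 and 121, Celf2 12 and 36, and Nfia 57 and 80. Zbtb20 and Nfia encode transcription factors, Nfia one of glial development, and Celf2 an RNA-binding protein. In the other direction Sh3pxd2a held 91 Sham and 58 Lam peaks, Gse1 80 and 48, Prdm16 144 and 115, Zmiz1 85 and 59, and Msi2 74 and 48. Over all genes 5503 had more Lam peaks, 5026 more Sham peaks and 4111 equal numbers above 0. A difference of 5 or more was seen in 388 genes for Lam and 570 for Sham. Sham and Lam peaks can differ in number where 1 list joins what the other splits: 3631 Sham peaks met 2 or more Lam peaks, and 2467 Lam peaks met 2 or more Sham peaks.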

How the data were processed

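The deposited files are peak lists, 1 per surgery and assay, with the samples of a group pooled by the authors, per the series' design text. The lists are on mm10, per the submitters' processing notes, and the aligner and peak caller are not given in the sources used here. The values are fold enrichment over local background (a ratio set by the authors' caller), −log10 p and −log10 q as deposited by the authors, and the deposited score, which was not used. Read totals are unknown. Because fold and p are both deposited, the reads at each summit, the local background and the scaling factor could be recovered. A recovery was accepted at a misfit under 0.003 in −log10 p, which held for 100% of the H3K9ac peaks. In 4000 simulated peaks per list the recovery was exact in 100% of cases. Those peaks were simulated with the formulas that the recovery inverts, so they cannot show that the authors' caller used them.

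Python 3.11.15, numpy 2.4.6, pandas 2.3.3, scipy 1.17.1 and bedtools 2.31.1 were used. Peaks were shared when they overlapped by 1 bp or more, and the counts of 30017 shared Lam and 28581 shared Sham peaks were checked with bedtools. Genes were the 21887 protein-coding genes of RefSeq GRCm38.p6. Starts were to be used where the promoter table covered 80% of them; it covered 79.9%, so peaks within 1 kb of either end of a gene were counted. Named genes are the 10 strongest unmatched peaks at gene ends and the 5 strongest away from them in each list, up to 4 members per gene list and direction, the 5 strongest per direction by site of surgery and by H3K27ac, the 5 largest differences in peak number per direction, and, added after the data were seen, X-linked peaks and peaks in 1 list alone. The comparison and the gene lists were chosen with earlier results of these data known. Alternatives were reciprocal overlap, matches within 1 kb, q limits, equal list sizes, matched depth, other windows and H3K9ac peaks that met an ATAC peak. For matched depth each list was thinned in expectation to the scaled background of the list where it was lowest. Whether samples of a group differ cannot be seen in pooled lists. Some genes that the naming rule selects are not reported here and are kept in the counts.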

Additional observations from a re-analysis of the deposited data

How the results depend on the processing

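No paired analysis was possible because the lists pool the samples of a group, and for the same reason no sample could be left out. The share of Lam peaks without a Sham match, 40.8%, became 66.2% with a reciprocal overlap of 50%, 25.2% when a peak within 1 kb counted, 51.3% at a q of at most 0.05, 78.6% at a −log10 q of at least 5 and 6.92% among the 5000 strongest. For Sham peaks, 43.2% became 66.0, 27.7, 33.5, 31.2 and 2.98% under the same settings and 44.9% at matched depth. Among H3K9ac peaks that met an ATAC peak of the same surgery, the unmatched shares were 25.1% for Lam and 28.9% for Sham. Genes with an end peak in Lam only, 1172, became 1995 at a q of at most 0.05 and 3428 at a −log10 q of at least 5, where genes in Sham only became 524. The log2 odds ratio by which unmatched Lam peaks met DCA only rather than SNA only, against unmatched Sham peaks, was 0.98; it became 0.88 at a −log10 q of at least 5, 1.16 with equal list sizes, 0.85 within 1 kb, 0.64 at a q of at most 0.05 and 0.42 with reciprocal overlap. The same ratio for H3K27ac, 0.20, became 0.36 with equal list sizes, 0.40 within 1 kb and, reversed, -0.16 with reciprocal overlap. The share of unmatched peaks at gene ends, 16.6% in Lam and 13.5% in Sham, became 59.9 and 74.1% at a −log10 q of at least 5, 12.2 and 10.7% within 1 kb, 20.6 and 19.3% at a q of at most 0.05, 21.9 and 19.4% with reciprocal overlap, and 31.4 and 30.8% with a window of 5 kb. The log2 ratio of Lam-only to Sham-only windows above 70% GC, 2.09, became 3.97 at a −log10 q of at least 5 and 2.50 at a q of at most 0.05. That of X-linked genes, 1.63, became 3.02 at a q of at most 0.05, and had no value at a −log10 q of at least 5, where no X gene was in Sham only. The cause of these changes was not tested. With starts from the promoter table, 929 genes were in Lam only and 725 in Sham only. The number of lists with more members in Lam only, 12 of 22, ranged from 9 to 16 over the alternatives run. Hox, replication-dependent histone, histone acetylation and oxidative phosphorylation genes had more members in Lam only in all 7 alternatives. Channels had more in Sham only in 6 of 7, while glial genes turned in 1. Over all genes too, Lam only exceeded Sham only in each of these alternatives but matched depth, where the counts were 1118 and 1136. An excess in Lam only is therefore not particular to those lists. In the lists as deposited, oxidative phosphorylation genes were at 2.56% in Lam only and 1.28% in Sham only, below the 5.35 and 4.7% of all genes. Many weak ranks are missing from the lists: beyond rank 50000 only 44.4% (Sham) and 45.5% (Lam) of ranks are present. The reason was not tested.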
